A study of Mus musculus with 37 samples.

Results

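Clustered protocadherins are cell surface cadherin relatives encoded in 3 adjacent gene clusters, and the genes described here are those whose symbol begins with Pcdha, Pcdhb, Pcdhga, Pcdhgb or Pcdhgc. The tables listed 57 such genes among 21975 gene identifiers: 14 of the alpha cluster, 22 of the beta cluster, and 12 gamma-A, 6 gamma-B and 3 gamma-C genes of the gamma cluster. They are called isoforms below. The annotation of mm10 (GRCm38) places all of them on the plus strand of chromosome 18, with the alpha cluster at 36930184 to 37187661, the beta cluster at 37264938 to 37524479 and the gamma cluster at 37661793 to 37841873. The annotation holds 58 genes of this family, and the additional one, Pcdhgb8, was not analysed here. The identifiers ENSMUSG00000007440 and ENSMUSG00000102206 share the symbol Pcdha11 in the symbol table and are named by their identifiers.

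Each isoform of the alpha and gamma clusters has a variable first exon with its own promoter, which is spliced to constant exons shared by the cluster, while each beta isoform is a gene of a single coding exon. In neurons most isoforms are switched on in random combinations by promoter choice, whereas the C-type isoforms (Pcdhac1, Pcdhac2 and Pcdhgc3 to Pcdhgc5) are used more regularly. The proteins bind the same isoform on a neighbouring cell, which serves self-recognition of dendrites and axons, and gamma protocadherins also act in contacts between astrocytes and neurons.

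The libraries came from hippocampal astrocytes of wild-type male mice (strain CD1 in the methods, CD31 in the sample labels), isolated with magnetic beads against ACSA-2, an astrocyte surface antigen, and amplified with a SMART-Seq V4 kit for small amounts of RNA. All mice were operated on as adults and sampled 4 months later. Injured mice received a controlled cortical impact (CCI) on 1 side of the brain, and sham mice had the surgery without an impact. Video-EEG divided the injured mice into those with repeated epileptic episodes (PTE+, post-traumatic epilepsy) and those that did not meet this criterion (PTE-). The contralateral hippocampus gave 20 libraries (5 PTE+, 10 PTE- and 5 sham mice) and the ipsilateral hippocampus 17 (4, 8 and 5), and 17 of the 20 mice had both. Each library is a mixture of many cells, so the number of isoforms in a library is not the number in a cell. In such mixtures, fewer cells that use an isoform and less of its RNA per cell cannot be told apart.

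Libraries held 25371887 to 59846479 counts. All 10 astrocyte markers were above 3 counts in every library, with a summed level of 5941 to 22031 TPM (a level scaled for gene length and library), against 61.6 to 1338 TPM for the 10 neuronal markers. The astrocyte sum had a median of 16572 TPM, and Aldoc alone one of 8472 TPM. Endothelial, oligodendrocyte and microglial markers reached at most 1933, 1757 and 551 TPM in a library. A gene was taken as detected above 3 counts, the floor that a count of 0 allows. The ipsilateral PTE- library of mouse a8_11 stood apart with 7666 genes detected, the lowest astrocyte marker sum and 5221 TPM of ependymal or choroid plexus markers, and the ipsilateral sham library of a9_9 was the only other one under 10000 genes (9740). The ipsilateral PTE- library of a9_12 held 7978 TPM of ependymal or choroid plexus markers, with 14780 genes detected.

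Reads from the shared exons of the alpha and gamma clusters cannot be assigned to 1 isoform by their sequence and were divided by the counting software. The exonic bases shared with another isoform made up 37.96% to 54.94% of an alpha isoform, 31.8% to 66.8% of a gamma-A, 31.5% to 54.6% of a gamma-B and 27.8% to 38.5% of a gamma-C isoform. In the beta cluster 20 of the 22 isoforms share no bases with another by position, and Pcdhb21 and Pcdhb22 overlap by at most 9.67%. Alpha and gamma levels are therefore less certain than beta levels, and genes on the opposite strand overlap some isoforms, among them Pcdha4, Pcdha12, Pcdhb12, Pcdhga7 and Pcdhgc3. Whether the counting used strand is not given in the sources used here.

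Isoforms were mostly either well above or at the floor. Of the 2109 values of 57 isoforms in 37 libraries, 857 were 0 counts, 83 were 1 to 3 counts and 1169 were above 3 counts. Of the values above 3 counts, 81.3% exceeded 100 counts. The same held for all genes of the tables, where 3.82% of the values were 1 to 3 counts, against 3.94% for the isoforms, and 86.1% of the values above 3 counts exceeded 100. Every isoform was detected in at least 1 library, and 1 of them, Pcdhgc3, in all 37. In all, 12 isoforms were detected in 30 or more libraries, 34 in 10 to 29 and 11 in fewer than 10.

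**Figure D1:**
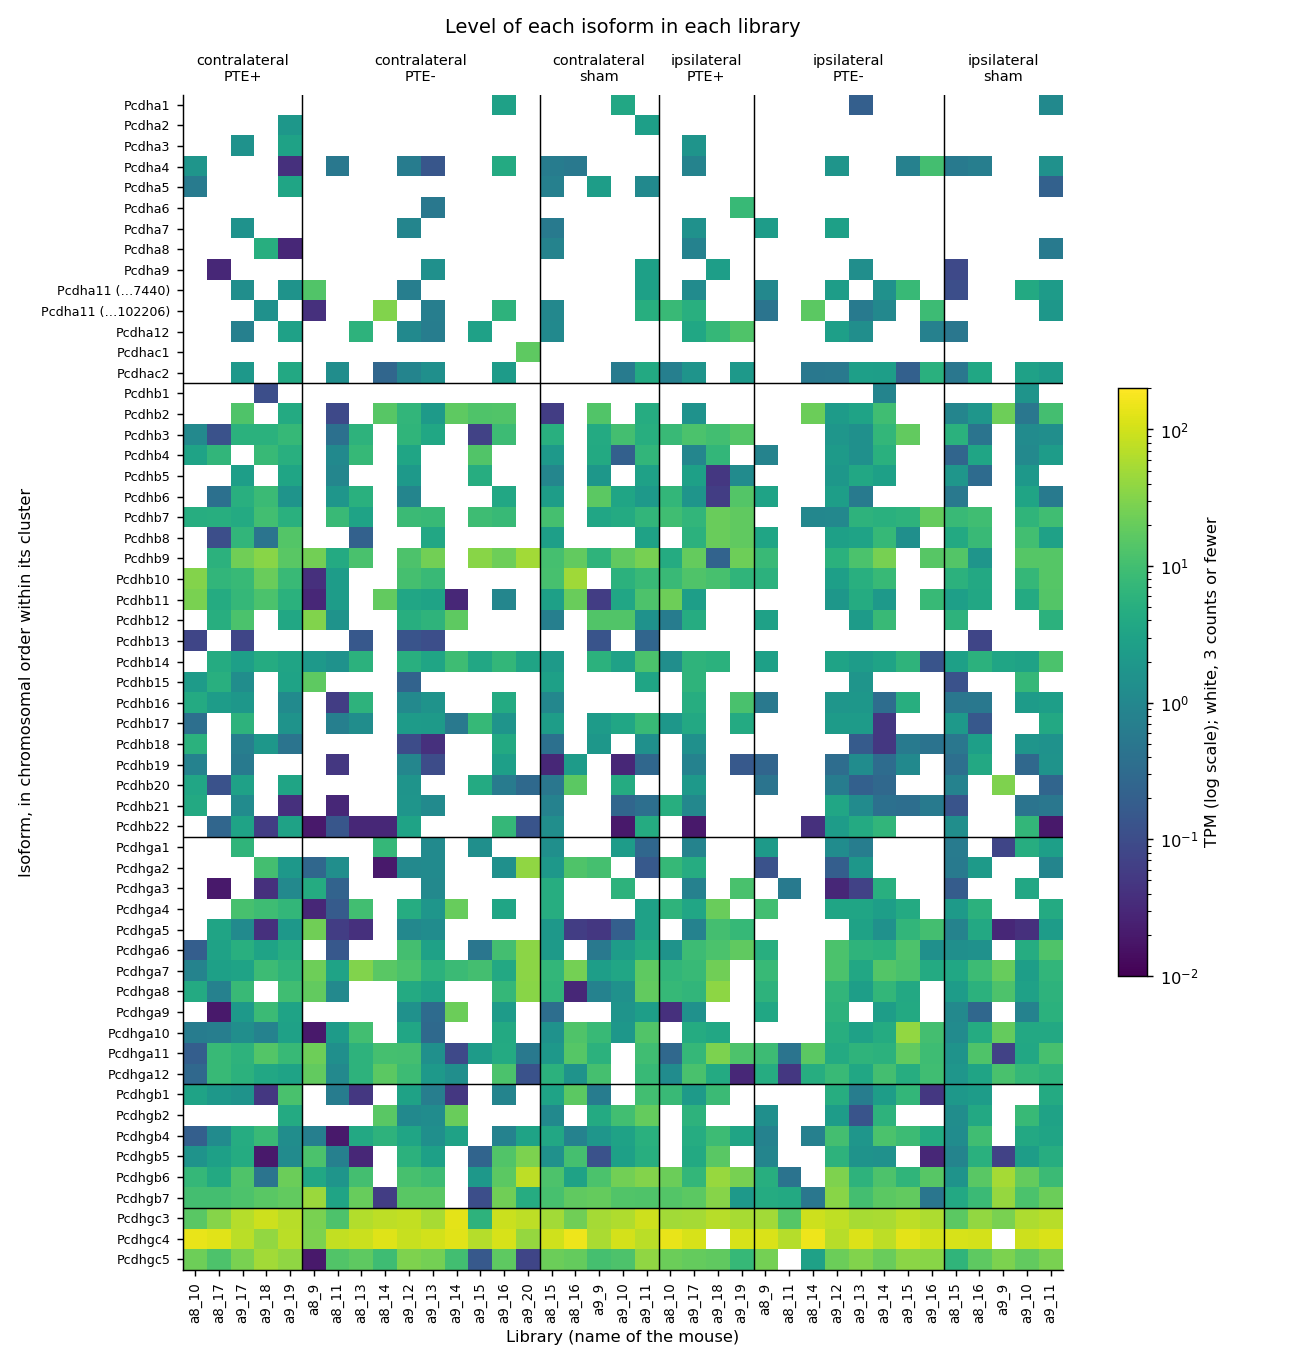
TPM of the 57 isoforms (rows, in chromosomal order within each cluster) in the 37 libraries (columns, by group and mouse), on a log colour scale in which values under 0.01 TPM are drawn as 0.01. White marks 3 counts or fewer: it covers most of the alpha rows, where 114 of 518 values were above 3 counts, and 3 cells of the gamma-C rows.

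The clusters differed in how regularly their isoforms were detected. An alpha isoform was detected in a median of 6 of 37 libraries, a beta isoform in 21.5, a gamma-A isoform in 27, a gamma-B isoform in 31.5 and a gamma-C isoform in 36. Over all genes of the tables the median was 30 libraries. Alpha isoforms had a median TPM of 0 in 12 of 14 cases. Within the gamma cluster, detection was more frequent toward the constant exons: Pcdhga1, first in chromosomal order, was detected in 15 libraries and Pcdhga11 and Pcdhga12, last in order, in 36 and 35. Over the 12 gamma-A isoforms the Spearman correlation of order and number of libraries was 0.78, over the 6 gamma-B isoforms 0.89, over the 14 alpha isoforms 0.42 and over the 22 beta isoforms -0.14. These correlations are descriptions, since all isoforms were read in the same libraries.

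The gamma-C isoforms carried a median of 52.6% of the summed TPM of all 57 isoforms (range 17.7% to 93.5%). Pcdhgc4, whose loss in mice is known to reduce the survival of neurons, had the highest median TPM of the 57 isoforms, 101 TPM (range 0 to 156). By counts its median was below that of Pcdhgc3, 6247 against 7930, although their exonic lengths are close (5596 and 5499 bases). The order of these isoforms therefore depends on the length scaling of TPM. Pcdhgc4 shares 37.9% of its exonic bases with other isoforms. It was detected in 35 libraries and listed at 0 in the ipsilateral libraries of a9_18 (PTE+) and a9_9 (sham), whose contralateral libraries held 40.5 and 55.9 TPM. Both of these ipsilateral libraries still held other gamma isoforms, with Pcdhgc3 at 69.6 and 27.7 TPM.

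Pcdhgc3, an isoform expressed in many cell types, had a median of 56.0 TPM over all libraries. Its 5 contralateral PTE+ libraries held 16.1, 32.6, 67.3, 93.8 and 69.5 TPM, the 10 PTE- libraries 5.96 to 131 TPM (median 69.1), and the 5 sham libraries 50.6, 23.8, 52.0, 61.5 and 93.2 TPM. Ipsilaterally the 4 PTE+ libraries held 51.3, 52.5, 69.6 and 55.4 TPM, the 8 PTE- libraries 14.6 to 95.8 TPM (median 57.2), and the 5 sham libraries 16.8, 40.2, 27.7, 59.8 and 68.7 TPM. The groups overlapped on both sides, and the ipsilateral PTE+ libraries lay closest together.

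Pcdhgc5 had a lower median, 19.1 TPM, and was detected in 36 libraries. Its contralateral PTE+ libraries held 22.9, 12.6, 27.6, 50.7 and 38.3 TPM, and its sham libraries 21.5, 19.3, 10.8, 12.7 and 38.9 TPM. The 10 PTE- libraries ranged from 0.02 to 30.04 TPM with a median of 11.9, and 3 of them (a8_9, a9_15 and a9_20) were below 0.2 TPM, at 4, 26 and 7 counts. Ipsilaterally the PTE- library of a8_11 was at 0 and that of a8_14 at 2.88 TPM, and the other libraries of the 3 groups held 6.61 to 35.6 TPM.

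The C-type isoforms of the alpha cluster did not share this level. Pcdhac2 was detected in 22 libraries, more than any other alpha isoform, with a median of 0.53 TPM and a highest value of 5.46 TPM. It was detected in 2 of 5 contralateral PTE+ libraries, 5 of 10 PTE- and 2 of 5 sham, and in 3 of 4, 6 of 8 and 4 of 5 ipsilaterally. Pcdhac1 was listed at 0 in 36 libraries and reached 16.97 TPM (1446 counts) in 1, the contralateral PTE- library of a9_20.

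The other alpha isoforms appeared in a few libraries each. Pcdha2 and Pcdha6 were detected in 2 libraries, Pcdha3 in 3, Pcdha1 in 4, Pcdha8 in 5, and Pcdha5, Pcdha7 and Pcdha9 in 6. Pcdha4, Pcdha12 and the 2 identifiers named Pcdha11 (ENSMUSG00000007440 and ENSMUSG00000102206) were detected more often, in 15, 14, 13 and 15 libraries. Where they were detected their levels were not at the floor: the median TPM over the libraries with detection was 1.99 for Pcdha12, 1.89 for Pcdha11 of ENSMUSG00000102206 and 0.69 for Pcdha4.

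In the beta cluster 18 of 22 isoforms were detected in at least 19 of the 37 libraries. Pcdhb9 had the highest median of the cluster, 12.45 TPM, and was detected in 30 libraries, with a highest value of 49.95 TPM in the contralateral PTE- library of a9_20. Pcdhb7 followed with a median of 6.05 TPM in 29 libraries and Pcdhb10 with 5.87 TPM in 25. Pcdhb14 was detected most often, in 31 libraries, at a median of 3.16 TPM. At the other end, Pcdhb1, first in chromosomal order, was detected in 3 libraries with 9, 66 and 131 counts, and Pcdhb13 in 8 libraries with at most 19 counts.

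Among the gamma-A isoforms, Pcdhga7 (median 7.16 TPM, 34 libraries), Pcdhga11 (6.15 TPM, 36 libraries) and Pcdhga12 (4.86 TPM, 35 libraries) had the highest medians, and Pcdhga1 was detected least often (15 libraries, highest value 7.29 TPM). Among the gamma-B isoforms, Pcdhgb7 (13.2 TPM, 36 libraries), Pcdhgb6 (10.3 TPM, 34 libraries) and Pcdhgb4 (3.03 TPM, 33 libraries) led, and Pcdhgb2 was detected in 18 libraries with a highest value of 20.5 TPM.

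The number of isoforms detected varied 7-fold between libraries, from 7 of 57 in the ipsilateral PTE- library of a8_11 to 49 in the ipsilateral PTE+ library of a9_17, with a median of 32. Contralaterally the 5 PTE+ libraries held 29, 32, 43, 32 and 47 isoforms, the 10 PTE- libraries 16 to 44 (median 25.5), and the 5 sham libraries 47, 21, 31, 32 and 45. Ipsilaterally the 4 PTE+ libraries held 26, 49, 26 and 24, the 8 PTE- libraries 7 to 45 (median 28.5), and the 5 sham libraries 46, 36, 15, 38 and 45. The ranges overlapped in each pair of groups and between hemispheres.

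**Figure D2:**
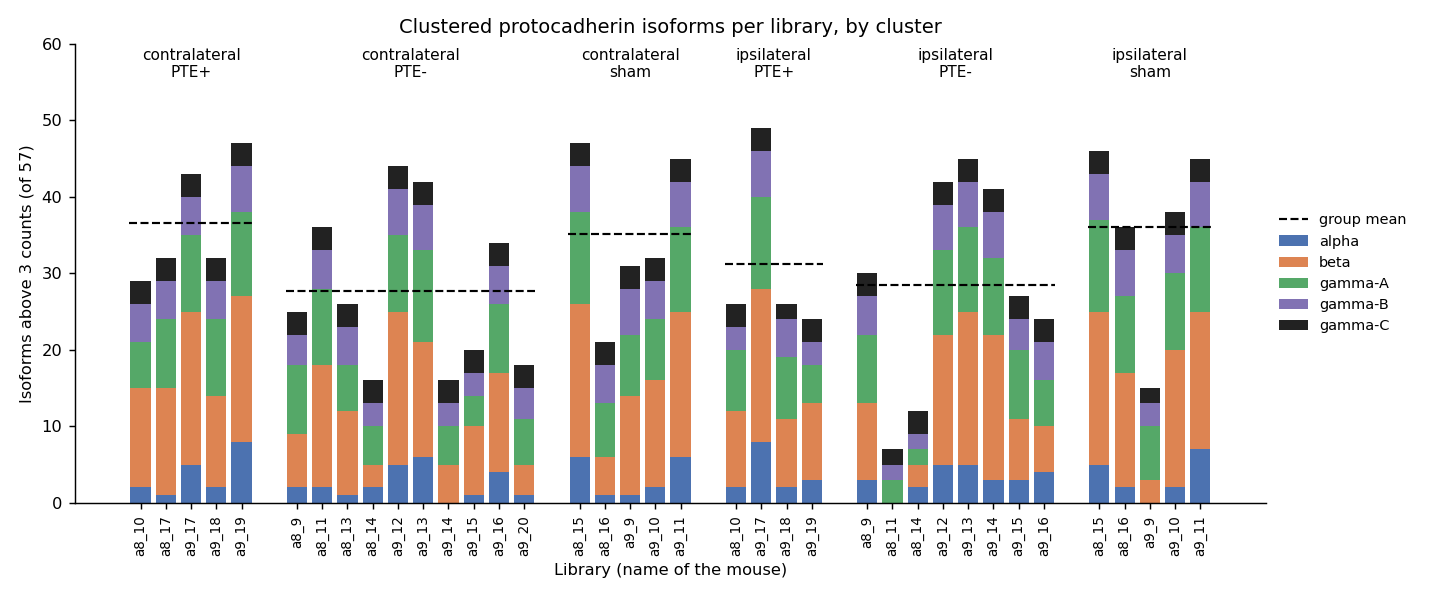
Number of isoforms above 3 counts in each library (bars, split by cluster and starting at 0, of 57 in all), with the mean of each group as a dashed line. The gamma-C segment is 2 or 3 isoforms high in every library, and the beta segment runs from 0 to 20.

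Contralateral PTE+ libraries held 36.6 ± 7.89 isoforms (SD, n = 5), PTE- libraries 27.7 ± 10.6 (n = 10) and sham libraries 35.2 ± 10.8 (n = 5). The difference of 8.90 isoforms between PTE+ and PTE- was smaller than the pooled SD between libraries, 9.87, as was the difference of -7.50 between PTE- and sham (pooled SD 10.7). This SD describes the spread of single libraries and is not the error of a difference in means. The contralateral means of the summed neuronal markers moved in the same order. They were 483 TPM in PTE+ (range 106 to 1338), 170 in PTE- (108 to 264) and 348 in sham libraries (95.7 to 849). The medians were 303, 161 and 317 TPM, with sham above PTE+. Of the 10 neuronal markers 0 had an adjusted p under 0.05 in PTE+ against PTE-, 1 (Snap25) an unadjusted one, and their median log2 fold change was 1.32. Their part in the isoform numbers was not tested. Ipsilateral PTE+ libraries held 31.2 ± 11.9 (n = 4), PTE- libraries 28.5 ± 13.99 (n = 8) and sham libraries 36.0 ± 12.5 (n = 5), and no difference between them exceeded the pooled SD of 12.2 to 13.5. No p is given for these numbers, since the genes were chosen with results of these libraries known.

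Mouse names begin with a8 or a9, a prefix whose meaning the labels do not give. Contralaterally the PTE+ minus PTE- difference was 4.75 isoforms within a8 (2 against 4 libraries) and 11.7 within a9 (3 against 6), and the PTE- minus sham difference was -8.25 (4 against 2) and -7.00 (6 against 3). Ipsilaterally the PTE- minus sham difference was -24.7 within a8 (3 against 2 libraries) and 3.13 within a9 (5 against 3), so its direction was not the same within the prefixes. The ipsilateral PTE+ minus PTE- difference was 9.67 within a8 (1 against 3) and -2.80 within a9 (3 against 5).

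By cluster, alpha isoforms numbered 0 to 8 per library (median 2), beta isoforms 0 to 20 (median 13), gamma-A isoforms 2 to 12 (median 9), gamma-B isoforms 2 to 6 (median 5) and gamma-C isoforms 2 or 3. Contralaterally the beta isoforms numbered 15.6 ± 3.65 in PTE+ (SD, n = 5), 10.3 ± 5.68 in PTE- (n = 10) and 14.2 ± 5.97 in sham libraries (n = 5), and ipsilaterally 12.2 ± 5.19 (n = 4), 10.4 ± 7.54 (n = 8) and 14.8 ± 6.83 (n = 5). Alpha isoforms numbered 3.60 ± 2.88, 2.4 ± 1.96 and 3.20 ± 2.59 contralaterally and 3.75 ± 2.87, 3.12 ± 1.64 and 3.20 ± 2.77 ipsilaterally, in the same order of groups. The contralateral PTE+ to PTE- difference in beta isoforms, 5.30, was near the pooled SD of 5.14, with overlapping ranges of 12 to 20 and 3 to 20. Gamma-B isoforms numbered 5.2 ± 0.447 in contralateral PTE+, 4.4 ± 1.17 in PTE- and 5.6 ± 0.548 in sham libraries. The PTE- minus sham difference of -1.2 gamma-B isoforms exceeded the pooled SD of 1.02, and it was -1.25 within a8 and -1.17 within a9. Ipsilaterally this difference was -0.7, within the pooled SD of 1.56, and its direction turned between the prefixes (-3 within a8 and 0.73 within a9).

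A set of isoforms was detected in each library of a group. It comprised 17 isoforms in the 5 contralateral PTE+ libraries, 5 in the 10 PTE- libraries and 13 in the 5 sham libraries, and 12, 5 and 13 in the 4, 8 and 5 ipsilateral ones. The number of libraries in a group limits these counts. In the contralateral PTE- group the 5 were Pcdhga7, Pcdhga11 and the 3 gamma-C isoforms, and in the ipsilateral PTE- group Pcdhgb7, Pcdhga11, Pcdhga12, Pcdhgc3 and Pcdhgc4.

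Isoform number moved with the number of genes of any kind detected in the library, which ranged from 7666 to 14847. Spearman's rho was 0.90 over the 20 contralateral libraries (Pearson's r 0.90) and 0.94 over the 17 ipsilateral ones (r 0.92). Without the 2 libraries farthest from the median number of genes it was 0.87 and 0.92. Within the prefixes it was 0.93 (a8, n = 8) and 0.79 (a9, n = 12) contralaterally, and 0.83 (n = 6) and 0.86 (n = 11) ipsilaterally. As shares, the libraries held 12.3% to 86.0% of the 57 isoforms and 34.9% to 67.6% of all listed genes. Genes detected averaged 13739 in contralateral PTE+, 12554 in PTE- and 13445 in sham libraries, the same order as the isoforms. Its part in the isoform numbers was not tested.

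Isoform number was not higher in deeper libraries: rho with the total count was -0.49 contralaterally (-0.83 within a8 and -0.33 within a9) and 0.10 ipsilaterally (0.09 and 0.05). With the summed TPM of the 57 isoforms rho was 0.04 contralaterally (-0.81 within a8 and 0.23 within a9) and 0.25 ipsilaterally (-0.03 and 0.27). Apart from the ipsilateral library of a8_11 at 86.1 TPM, the summed TPM was between 153 and 496, and the contralateral PTE- library of a9_20 reached 442 TPM from 18 isoforms, while the ipsilateral sham library of a8_15 held 223 TPM from 46. The Spearman correlation of isoform number with the summed neuronal markers was 0.29 and 0.06 in the hemispheres, with astrocyte markers 0.23 and 0.46 (ipsilaterally 0.94 within a8 and 0.05 within a9), and with oligodendrocyte, microglial, endothelial and ependymal or choroid plexus markers between -0.13 and 0.31. Within the prefixes the correlations with the marker lists other than astrocytes ran from -0.43 to 0.71, and those with oligodendrocyte markers were 0.71 (a8) and -0.04 (a9) contralaterally and 0.60 and -0.36 ipsilaterally. All these values come from the same libraries and are descriptions.

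**Figure D3:**
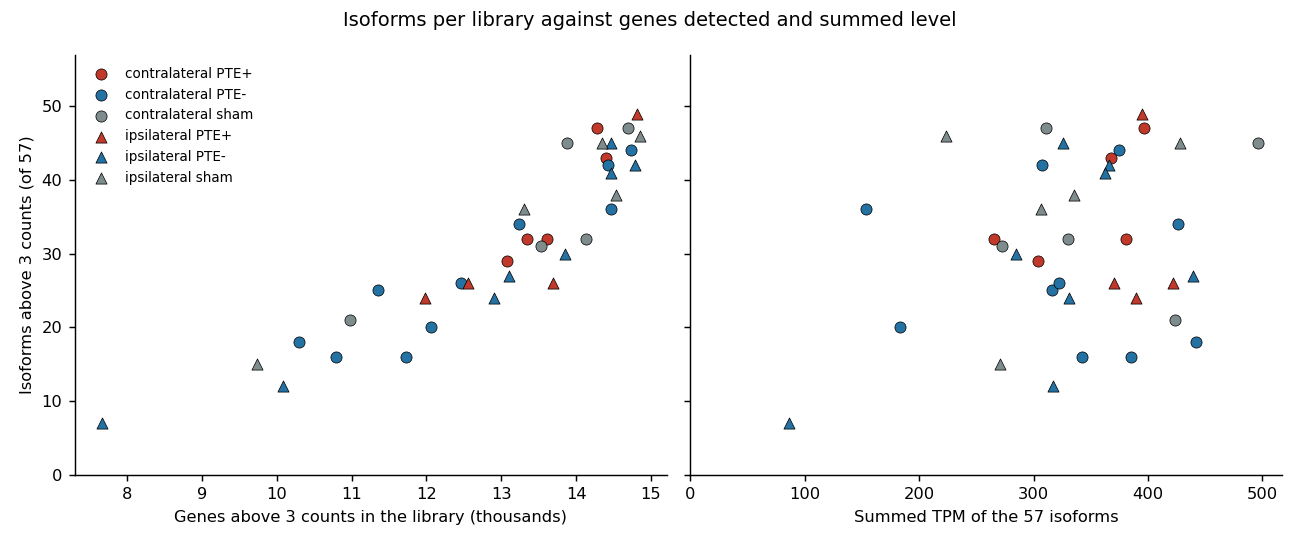
Isoforms above 3 counts per library against the number of genes above 3 counts (left) and against the summed TPM of the 57 isoforms (right), 1 point per library, with colour for the group and shape for the hemisphere. The points rise with the genes detected (rho 0.90 and 0.94 for the hemispheres) and scatter over the range of summed TPM (rho 0.04 and 0.25).

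In the 17 mice with both libraries, the ipsilateral library held more isoforms in 7, fewer in 9 and the same number in 1. The mean difference was -1.59 isoforms with an SD of 13.1 over mice. The mean ipsilateral minus contralateral difference was -6.5 in PTE+ mice (SD of the differences 12.1, n = 4, fewer in 3), -0.62 in PTE- mice (SD 15.4, n = 8, more in 4 and fewer in 4) and 0.8 in sham mice (SD 11.3, n = 5, more in 2 and fewer in 2). Within the prefixes it was -3 (a8, n = 1) and -7.67 (a9, n = 3) in PTE+ mice, -9.33 (n = 3) and 4.6 (n = 5) in PTE- mice, and 7 (n = 2) and -3.33 (n = 3) in sham mice, so that its direction turned in PTE- and sham mice. The extremes were both PTE- mice: a8_11 went from 36 contralateral to 7 ipsilateral isoforms, and a9_14 from 16 to 41. In 7 of the 17 mice the 2 libraries were within 5 isoforms of each other. Over mice, rho between the numbers of both sides was 0.37 (r 0.38) for the isoforms and 0.31 (r 0.02) for all genes detected. Without the 2 mice farthest from the median, rho was 0.35 (r 0.41) for the isoforms and 0.41 (r 0.18) for all genes.

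The isoforms of a mouse's contralateral library recurred in its ipsilateral library more often on average than in those of other mice of its group, by less than the spread between mice. A median of 76.0% of the isoforms of the contralateral library were found again in the ipsilateral library of the same mouse (range 19.4% to 100%), and 66.2% in pairings with libraries of other mice. The pairings took either library of the mouse, so the value for a mouse also includes contralateral lists of other mice read against its ipsilateral library. Of the isoforms of the ipsilateral library, a median of 85.7% were also in the contralateral one (range 39.0% to 100%), against 75.3% with other mice. The same mouse exceeded the mean over other mice in 11 of 17 mice by the contralateral and in 12 of 17 by the ipsilateral list. Over all genes of the tables it did so in 12 and 11 of 17 mice, so these counts are not particular to the isoforms. The mean excess over all genes was 0.67 and 0.49 percentage points, and its difference from that of the isoforms was not tested. The mean excess of the isoforms, 4.00 and 4.53 percentage points, was smaller than its SD over mice, 15.02 and 13.3. This SD describes the spread of single mice and is not the error of the mean excess.

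**Figure D4:**
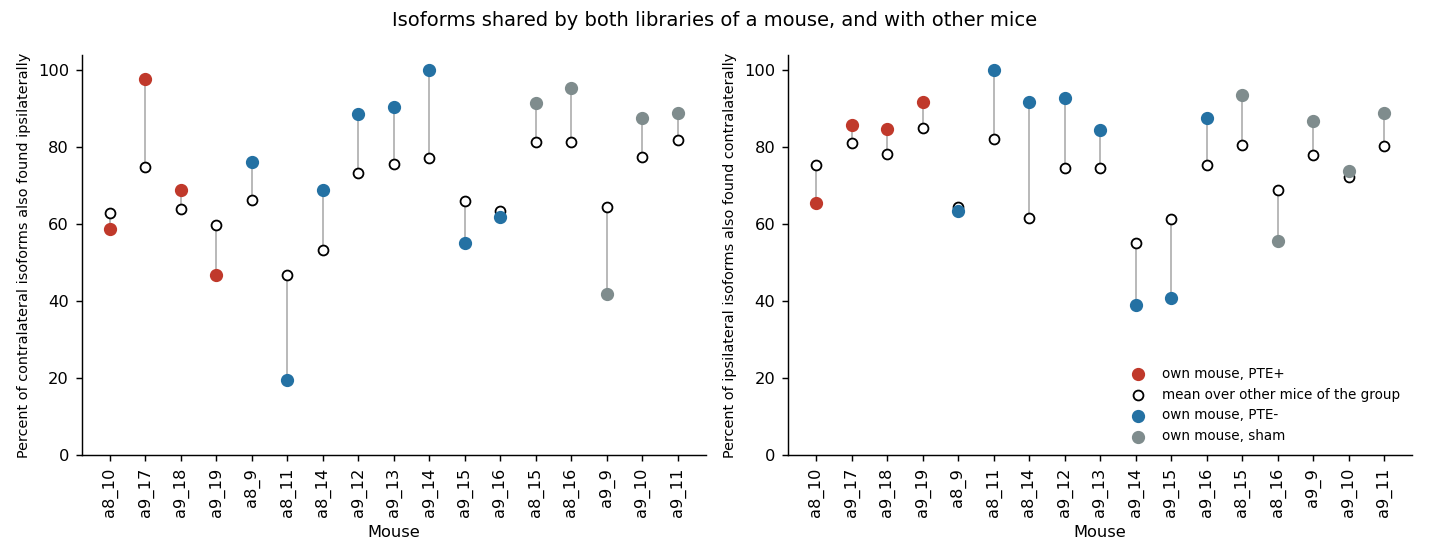
Share of the isoforms of 1 library that were also found in the other, for the contralateral list (left) and the ipsilateral list (right), in percent. Filled points are the 2 libraries of a mouse, coloured by group, and open points the mean over pairings with other mice of the group: filled points lie above the open ones in 11 and 12 of 17 mice. Over all genes of the tables (not drawn) the same mouse was above in 12 and 11 of 17.

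Single mice covered a wide range. Mouse a9_17 (PTE+) held 43 contralateral and 49 ipsilateral isoforms with 42 in common, a8_15 (sham) 47 and 46 with 43 in common, and a9_12 (PTE-) 44 and 42 with 39 in common. Mouse a8_14 (PTE-) had few isoforms on both sides, 16 and 12, and 11 of them were common. In a9_15 (PTE-) 11 were common of 20 and 27, and this mouse also had the lowest correlation of levels between its libraries. In a9_14 (PTE-) all 16 contralateral isoforms were among the 41 ipsilateral ones, and in a8_11 (PTE-) all 7 ipsilateral isoforms were among the 36 contralateral ones.

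Counting each isoform as on or off, both libraries of a mouse were in the same state for a mean of 71.6% ± 12.96 of the 57 isoforms (SD, n = 17 mice), against 65.2% with other mice. The same mouse was above the other mice in 13 of 17 (in 10 of 17 over all genes of the tables), and the mean excess for the isoforms was 6.39 points with an SD of 13.1. For the 44 isoforms detected in 4 to 33 libraries it was 65.8% against 57.9%, and for the 7527 genes of the tables detected in 4 to 33 libraries 67.1% against 64.9%. The difference between the isoforms and other genes was not tested. The Spearman correlation of TPM over the 57 isoforms had a median of 0.56 between both libraries of a mouse (0.21 in a9_15 to 0.81 in a9_12) and 0.51 over the 88 pairings of different mice (0.23 to 0.82).

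The share of isoforms in the same state was also read by cluster. The gamma-C isoforms shared 94.1% of states within a mouse and 94.1% between mice. Gamma-B isoforms shared 79.4% against 72.9%, gamma-A isoforms 70.1% against 65.9% and beta isoforms 62.3% against 56.0%. Alpha isoforms shared 79.4% against 69.7%, above the other mice in 14 of 17, and most of these states were off in both libraries. For the share of contralateral alpha isoforms found again, the excess of the same mouse was 11.7 points over the 16 mice with a value, with an SD of 36.1.

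Pcdhgc3 was detected in both libraries of all 17 mice, Pcdhgb7 and Pcdhga11 in both of 16, Pcdhgc5 in both of 16, and Pcdhgc4 in both of 15. Pcdha1, Pcdha2, Pcdha6, Pcdha8, Pcdhac1, Pcdhb1 and Pcdhb13 were in both libraries of none. For Pcdhb13 this was 6 mice with the contralateral library alone and 1 with the ipsilateral one, and for Pcdhb11 10 mice in both, 6 contralaterally alone and 0 ipsilaterally alone, while Pcdhb8 was in both of 6 mice, ipsilaterally alone in 6 and contralaterally alone in 0. These isoforms (Pcdhb8 and Pcdhb11) were singled out after their values were seen, and no test was made.

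The levels of single isoforms were then compared between groups with edgeR's quasi-likelihood test over all genes of a hemisphere, with Benjamini-Hochberg adjustment. The filter on low counts kept 48 of the 57 isoforms contralaterally, 46 ipsilaterally and 52 in the fit of both sides. The isoforms it left out were mainly alpha isoforms, with Pcdhb1 left out of each fit and Pcdhb13 of the ipsilateral one. No isoform had an adjusted p under 0.05 in any of the 9 comparisons, the smallest being 0.9998. Standard errors were large, with a median over isoforms between 1.75 and 2.56 on the log2 scale. The smallest SE of an isoform with counts in the groups compared, 0.34, belonged to Pcdhgc3. Estimates well above their SE were also not called by edgeR after adjustment, such as 9.85 ± 2.37 for Pcdha5 in contralateral PTE+ against PTE-. At this number of libraries, the lack of calls therefore does not show that levels were equal.

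In contralateral PTE+ against PTE- libraries 0 of 48 isoforms had an adjusted p under 0.05 (0.00683% of all 14642 genes tested, 1 gene) and 2 an unadjusted p under 0.05 (2.21% of all genes). DESeq2 called 1 isoform after adjustment, where it called 23 of 14500 genes (0.159%). In PTE- against sham it was 0 (0% of all genes) and 2 (1.54%), with 1 called by DESeq2 (26 genes, 0.179%). In PTE+ against sham it was 0 (0%) and 0 (1.23%), with 0 called by DESeq2 (31 genes, 0.214%). The median log2 fold change over the 48 isoforms was -0.01, -0.06 and 0.03 in these comparisons, beside -0.05, 0.07 and 0.03 over all genes.

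In ipsilateral PTE+ against PTE- libraries 0 of 46 isoforms had an adjusted p under 0.05 (0% of all 14903 genes) and 1 an unadjusted p under 0.05 (1.75%). In PTE- against sham the counts were 0 (0%) and 1 (1.58%), and in PTE+ against sham 0 (0%) and 1 (1.66%). DESeq2 called 0 isoforms in each of these comparisons after adjustment, where it called 63, 19 and 63 of 14539 genes (0.433%, 0.131% and 0.433%). The medians were 0.64, -0.18 and 0.09, beside -0.01, 0.02 and 0.00 over all genes, and in PTE+ against PTE- 30 of the 46 isoforms had a positive estimate.

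Between hemispheres, in the 4 PTE+ mice 0 of 52 isoforms had an adjusted p under 0.05 (0% of all 15731 genes) and 4 an unadjusted p under 0.05 (2.93%), with 1 called by DESeq2 (253 of 15355 genes, 1.65%). In the 8 PTE- mice the counts were 0 (0%) and 0 (4.56%), and in the 5 sham mice 0 (0%) and 1 (2.05%), with 0 called by DESeq2 in both (0.86% and 0.795% of genes). When the fit took the mouse as a replicate block, 1, 0 and 0 isoforms had an unadjusted p under 0.05, beside 0.763%, 2% and 0.331% of all genes. The one isoform was Pcdha5 (block p = 0.0408).

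Isoforms are named below for a small p in these comparisons, so the exact p-values given for them describe the values that selected them and add no independent test. Pcdha5, an alternate alpha isoform, was the one called by DESeq2 in each of the 3 comparisons. It was at 0 in all 10 contralateral PTE- libraries. The 5 contralateral PTE+ libraries held 0.62, 0, 0, 0 and 3.44 TPM (82 and 444 counts in a8_10 and a9_19) and the 5 sham libraries 0.76, 0, 2.49, 0.01 and 1.10 TPM (92, 0, 447, 1 and 123 counts). It was at 0 in all ipsilateral PTE+ and PTE- libraries and at 37 counts in 1 ipsilateral sham library. Isoform and group thus separated in part only, since 3 of 5 PTE+ and 2 of 5 sham libraries were also at or under the floor.

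Against the floor of 3 counts per library, the mean of Pcdha5 was 38.6-fold higher in contralateral PTE+ than in PTE- libraries (SD over libraries 70.3). In sham libraries it was 41.0-fold higher (SD 48.9). These folds are lower bounds with regard to counting error only, and not to the spread between libraries. These bounds fell to 7.66 without the PTE+ library of a9_19 and to 21.3 without the sham library of a9_9. The neuronal marker sum was 106 TPM in a8_10 and 1338 TPM, the highest of all libraries, in a9_19. In the contralateral sham libraries with Pcdha5 above the floor (a8_15, a9_9 and a9_11) it was 155, 322 and 849 TPM. The part of the neuronal markers was not tested. The unadjusted edgeR p of Pcdha5 was 0.00115 and 0.00111. Exact two-sided permutation of log2(CPM + 1) over libraries returned p = 0.0952 for PTE+ against PTE- and p = 0.00366 for PTE- against sham. In DESeq2 the adjusted p was 1.59e-13 and 3.16e-13. In PTE+ mice the ipsilateral mean was 59.7-fold lower than the contralateral one by the same kind of bound (SD over contralateral libraries 95.8). It was 12.9-fold lower without mouse a9_19. The unadjusted edgeR p was 0.0137 and the DESeq2 adjusted p 7.79e-05, and the exact sign-flip test over 4 mice gave p = 0.5 and cannot go below 0.125. Of the exonic bases of Pcdha5, 54.94% are shared with other alpha isoforms.

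Pcdhga7 was lower in contralateral PTE+ than in PTE- libraries at an unadjusted p. The 5 PTE+ libraries held 0.83, 2.82, 3.10, 8.74 and 6.26 TPM, and the 10 PTE- libraries 3.14 to 35.2 TPM with a median of 11.1. The ranges overlapped, and the 5 sham libraries held 7.16, 25.1, 2.55, 3.55 and 17.3 TPM. The log2 fold change was -1.88 ± 0.71 (SE), with an unadjusted edgeR p of 0.0151, and by exact permutation p was 0.0186. DESeq2 gave an unadjusted p of 0.00262 and an adjusted p of 0.675. Ipsilaterally the 4 PTE+ libraries held 6.82, 7.78, 23.3 and 0 TPM and the 8 PTE- libraries 0 to 13.9 TPM (median 6.06), so that the PTE+ mean was not the lower one there (9.47 against 6.70 TPM).

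**Figure D5:**
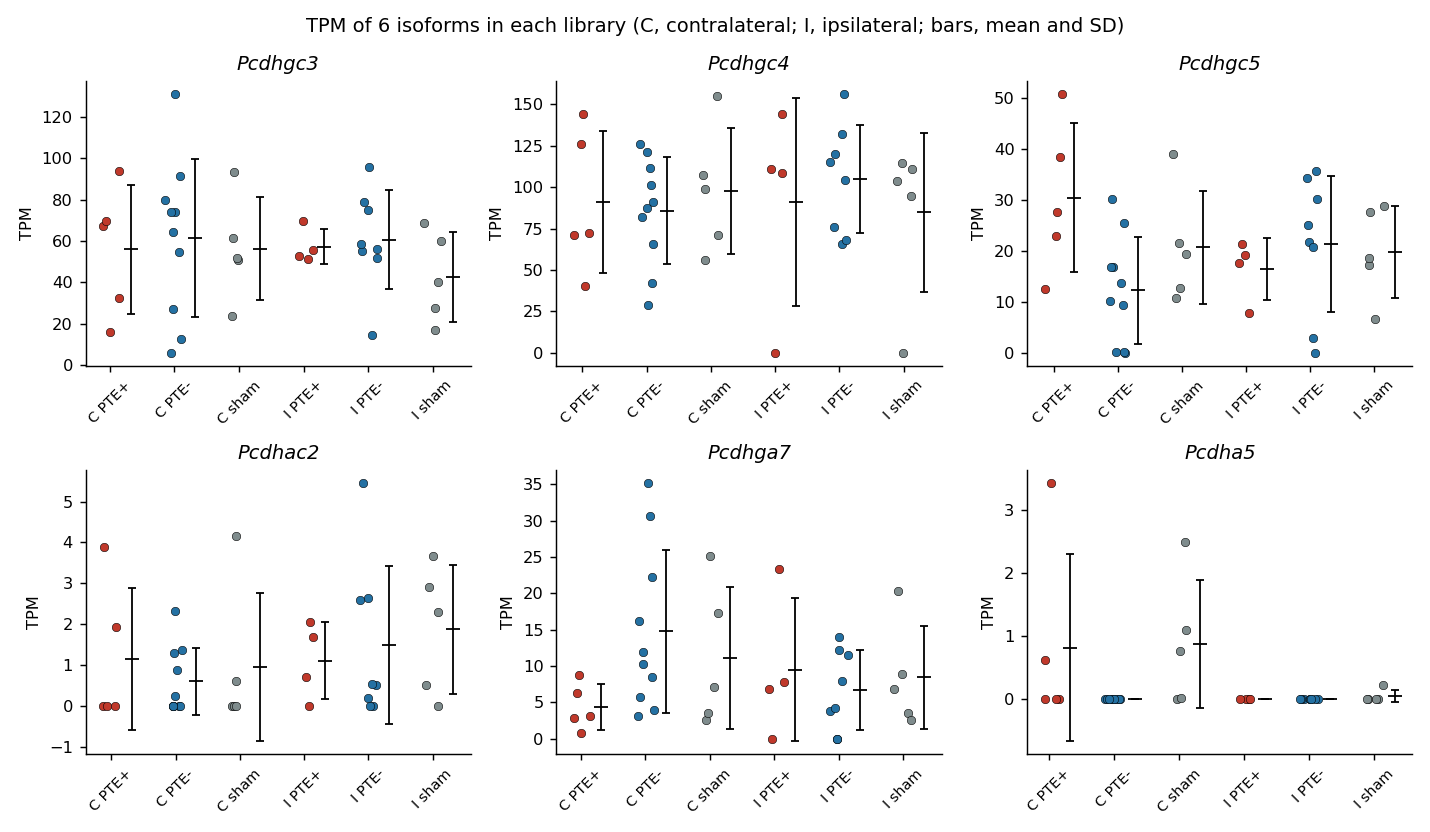
TPM of Pcdhgc3, Pcdhgc4, Pcdhgc5, Pcdhac2, Pcdhga7 and Pcdha5 in each library by group (C, contralateral, and I, ipsilateral), 1 point per library, with the mean and SD of the group at its side. The groups overlap in each panel, and Pcdha5 is at 0 in all PTE- libraries of both hemispheres.

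The other isoforms with an unadjusted p under 0.05 belong to the gamma-B, beta and alpha clusters. Pcdhgb1 in contralateral PTE- against sham had a log2 fold change of -3.39 ± 1.59 (SE, unadjusted edgeR p = 0.0440, exact permutation p = 0.0336). The sham libraries held 3.14, 16.6, 0.64, 0 and 10.1 TPM and the PTE- libraries 0 to 2.99 TPM with a median of 0.05. Its p exceeded 0.05 in 10 of 15 fits that left out 1 library, up to 0.160 without the sham library of a8_16.

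Pcdhb22 was lower in ipsilateral PTE+ libraries (0, 0.02, 0 and 0.01 TPM) than in PTE- libraries (0 to 6.86 TPM, median 0.025) and sham libraries (1.35, 0, 0.01, 6.99 and 0.02 TPM). The unadjusted edgeR p was 0.0367 and 0.0387 and the exact permutation p 0.184 and 0.317. It exceeded 0.05 in 5 of 12 and 4 of 9 fits that left out 1 library. In PTE+ mice the ipsilateral minus contralateral log2 fold change was -6.16 ± 2.97 (SE, unadjusted edgeR p = 0.0460), and with the mouse as a block the p was 0.0979. Values above 1 TPM were seen in 3 of 8 PTE- and 2 of 5 sham libraries. Contralaterally 2 PTE+ libraries held 3.18 and 3.01 TPM, 2 PTE- libraries 3.12 and 7.28 TPM, and 2 sham libraries 1.34 and 4.41 TPM.

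Pcdhb20 in ipsilateral PTE- against sham (edgeR p = 0.0467, exact permutation p = 0.210) rested on 29.2 TPM in the sham library of a9_9, where the other 4 sham libraries held 0 to 0.82 TPM. Without that library the log2 fold change went from -5.06 to -0.77 and the p to 0.734. In PTE+ mice, Pcdhb13 had 7 and 6 counts in 2 of 4 contralateral libraries and 0 ipsilaterally (edgeR p = 0.0217), and Pcdha9 had 421 counts in 1 ipsilateral library and 0 in the 4 contralateral ones of these mice (edgeR p = 0.0434). In sham mice, Pcdha7 had 70 counts in 1 contralateral library and 0 in all others (edgeR p = 0.0432). The exact sign-flip tests over mice gave p = 0.5, 1 and 1, and with the block the edgeR p was 0.115, 0.243 and 0.222.

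Among the gamma-C isoforms, the SE was 0.34 to 0.56 for Pcdhgc3 and 0.82 to 1.17 for Pcdhgc5 over the 9 comparisons, and for Pcdhgc4 it was 0.35 to 1.35, with 0.35 to 0.40 in the 3 contralateral comparisons. Pcdhgc4 had a log2 fold change of 0.03 ± 0.35 (SE) in contralateral PTE+ against PTE- and -0.16 ± 0.35 in PTE- against sham, and Pcdhgc3 -0.21 ± 0.47 and 0.21 ± 0.47. Ipsilaterally Pcdhgc3 had -0.19 ± 0.37 and 0.42 ± 0.34. Pcdhgc5 had 1.14 ± 0.88 in contralateral PTE+ against PTE-. The unadjusted edgeR p of these estimates was 0.210 or higher.

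Other genes of the same biology were read from lists. Of the 12 non-clustered protocadherins, which are separate genes without shared exons, 5 to 12 were detected per library (median 10). Each was detected in a median of 33.5 libraries, against 21 for the clustered isoforms and 30 for all genes of the tables. Pcdh9 had the highest median of them, 75.4 TPM, followed by Pcdh7 with 26.0 and Pcdh10 with 21.4 TPM. None had an adjusted p under 0.05, and 1, Pcdh12, had an unadjusted p under 0.05 in 1 comparison, between hemispheres of sham mice (edgeR p = 0.0116). The median log2 fold change over the list was between -0.49 and 0.24 in the 9 comparisons.

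The 16 genes of promoter choice and cluster chromatin were detected in 34 or more libraries each, apart from Dnmt3b in 25, with 13 to 16 per library. Among them Ctcf, whose protein joins cluster promoters and enhancers in loops, had a median of 67.5 TPM, the cohesin subunit gene Rad21 8.08 TPM, and Smchd1, a repressor of the clusters, 13.1 TPM. None of the 16 had a p under 0.05 in any comparison, adjusted or not. Of the 20 genes of cytoplasmic or membrane partners and proteases, 11 to 20 were detected per library. Among them Fyn, a kinase, had an unadjusted p under 0.05 in ipsilateral PTE+ against PTE- (log2 fold change 0.53 ± 0.25, SE, edgeR p = 0.0459). The others did not reach an unadjusted p under 0.05, and the medians over both lists were between -0.27 and 0.43.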

How the data were processed

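RNA was measured in 37 libraries of hippocampal astrocytes from 20 mice. The authors trimmed reads with Trim Galore 0.6.4 and obtained expected counts of each gene with RSEM 1.2.28 and Bowtie2 2.4.1 on mm10, and deposited them as whole numbers without normalization, together with TPM from the same run. The annotation release is not given in the sources used here. Symbols and positions came from GENCODE (GRCm38), and 21856 of 21975 identifiers had a symbol.

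The isoforms and gene lists were chosen with earlier results of these data known. An isoform was detected above 3 counts, a limit that covers counting error only, since no molecular identifiers are named. Counts were tested in R 4.3.3 with edgeR 4.0.16 (filterByExpr, TMM, quasi-likelihood F test, Benjamini-Hochberg adjustment over all genes tested), in 1 fit of the 3 groups per hemisphere and 1 fit of both hemispheres in the 17 mice with both. DESeq2 1.42.0 was an alternative (the authors used DESeq2 1.36.0). SE is the estimate divided by the root of F. Named isoforms were also compared by exact permutation of log2(CPM + 1), with CPM as counts scaled to the library total. Both libraries of a mouse come from the same animal, so their numbers pair. The code was run on simulated data as a check of its working. For the edgeR and DESeq2 fits, success was required only at a spread between libraries below that of these data. The biological coefficient of variation, the SD of a gene between libraries relative to its mean, was 1.32 contralaterally and 1.40 ipsilaterally. No power for these data is read from that check. Other-mouse recurrence is the mean over pairings of 1 library of a mouse with the opposite side of another mouse of its group.

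The isoforms named were the 5 C-type ones, per cluster the 3 with the highest median TPM and the one detected least often, up to 3 per comparison with the smallest p under 0.05, and 3 detected in both libraries of the most mice. Alternatives were RLE size factors, no count filter, the 2 groups alone, the prefix as covariate, the replicate block, each library left out, other detection limits, and thinning to the smallest library. Figures were drawn with matplotlib 3.10.9.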

Additional observations from a re-analysis of the deposited data

Results flagged for a closer look

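Samples far from the rest of their group were sought in 87 sets of 4 to 10 libraries (isoform numbers, summed TPM and the TPM of the gamma-C isoforms), and 11 were found. About 1 in 20 would be expected by chance in independent sets without ties. These sets overlap and some hold small tied numbers, so the 11 cannot be compared with that rate. In the ipsilateral PTE+ group, mouse a9_17 stood above the other 3 mice with 49 isoforms (next 26), 8 alpha isoforms (next 3) and 20 beta isoforms (next 10), and mouse a9_18 stood apart with 2 gamma-C isoforms (the others 3) and 110 TPM of gamma-B isoforms (next 43.7). In the ipsilateral PTE- group, mouse a8_11 was lowest with 2 gamma-C isoforms and 86.1 TPM over all isoforms (next 284). In the ipsilateral sham group, mouse a9_9 was lowest with 2 gamma-C isoforms and 0 TPM of Pcdhgc4 (next 94.6). In the contralateral groups, PTE+ mouse a9_19 had 6 gamma-B isoforms (the others 5), and sham mouse a9_11 had 18.6 TPM of alpha isoforms (next 4.94). Causes were not tested.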

How the results depend on the processing

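No isoform had an adjusted p under 0.05 in edgeR under any alternative, leaving out each library included. In DESeq2 the count went from 0 to 1 (Pcdha5) in contralateral PTE+ minus PTE-, in contralateral PTE- minus sham and in the hemisphere comparison of PTE+ mice, where it went from 1, 0 and 0 to 23, 26 and 253 over all genes, and the cause was not tested. With the mouse as a replicate block the 3 paired counts of adjusted calls stayed at 0. Without the count filter the isoforms with an unadjusted p under 0.05 numbered 9, 6 and 2 contralaterally and 4, 4 and 7 ipsilaterally (PTE+ minus PTE-, PTE- minus sham, PTE+ minus sham), beside 8.12%, 7.03%, 6.08%, 4.81%, 6.2% and 3.91% of all genes. Without the ipsilateral PTE+ library of a9_17 they numbered 7 in ipsilateral PTE+ minus PTE-, 8 in PTE+ minus sham and 10 between hemispheres of PTE+ mice, against 1, 1 and 4 with it, beside 3.35%, 3.33% and 4.41% of all genes. The 9 differences in isoform number moved by less than 1 pooled SD under all alternatives, but 4 small ones changed sign when 1 library was left out: ipsilateral PTE+ minus PTE- (-3.17 to 5.17, below 0 without a9_17 or a8_11), contralateral PTE+ minus sham (-2.15 to 4.35, below 0 without a9_17, a9_19 or a8_16), and ipsilateral minus contralateral in PTE- mice (-2.98 to 2.45, above 0 without either library of a8_11 or a9_16, the ipsilateral one of a8_14 or the contralateral one of a9_12 or a9_13) and in sham mice (-2.75 to 6.05, below 0 without the ipsilateral library of a8_15 or a9_11 or the contralateral one of a8_16 or a9_9, and 0 without that of a9_10). Alternatives chosen after seeing the data were to leave out each library with Pcdha5 from its bound, to leave out the ipsilateral libraries of a8_11 and a9_9, and to use the isoforms detected in 4 to 33 libraries alone. Without the libraries of a8_11 and a9_9 the ipsilateral PTE+ minus PTE- difference was -0.32 and PTE+ minus sham -10.0. The excess of the same mouse over other mice ranged from 2.37 to 7.85 percentage points by the contralateral list and from 4.6 to 8.20 by on or off state over the alternatives, and was 4.89 and 6.32 in the beta cluster alone, whose genes do not share the constant exons. Another detection limit (1 or more counts, over 10 counts, over 0.1 CPM, over 1 TPM) or thinning gave medians of 23 to 34 isoforms per library.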

Other observations

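The isoform with the highest TPM of its cluster changed from library to library. In the beta cluster Pcdhb9 was highest in 20 of 37 libraries, and 11 different isoforms were highest in at least 1. In the gamma-B isoforms Pcdhgb7 was highest in 19 libraries and 4 isoforms took that place, in the gamma-A isoforms Pcdhga7 in 11 libraries and 11 isoforms, and in the alpha cluster 11 isoforms in the 34 libraries with a value. The highest isoform carried a median of 65.8% of the alpha TPM, 27.6% of the beta TPM, 26.0% of the gamma-A TPM and 47.7% of the gamma-B TPM. It was the same in both libraries of 6 of 17 mice for beta (35.3%), 5 for gamma-B (29.4%), 2 for gamma-A (11.8%) and 1 for alpha (5.88%). In 88 pairings of different mice of a group it was the same in 26.1%, 48.9%, 13.6% and 5.68%. For gamma-B and gamma-A the share was thus lower within a mouse than between mice.

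The annotation also holds genes whose exons overlap both an alpha isoform and the gamma isoforms. Of these, Gm42416, which overlaps Pcdha4, was detected in 11 libraries with at most 3.40 TPM (306 counts), and Gm37013 and Gm37388 were listed at 0 in all 37.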
